A study of Mus musculus with 8 samples.

Results

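Fibroblast growth factor (Fgf) signalling in the mouse embryonic heart was described through 10 genes, taken by their symbols from the count tables: the receptors Fgfr1, Fgfr2, Fgfr3 and Fgfr4, the Sprouty inhibitors Spry1, Spry2 and Spry4, the ERK phosphatase Dusp6, and the ETS transcription factors Etv4 and Etv5. All 10 were found among the 49315 genes listed, and 9 of them were among the 16377 genes with enough counts to be tested. Fgfr4 was the exception. The libraries came from hearts of C57BL/6 embryos at embryonic day 9.5, 4 from male and 4 from female embryos, with sex read by genotyping Sry in tissue outside the heart. The embryos carried no labelled mutation or treatment, and the study asked how male and female hearts differ. Nothing in the labels tells 1 heart from a pool of hearts per library, nor separate litters, so every p-value here reflects only how these 8 libraries vary, which may be technical.

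Fgf ligands bind tyrosine kinase receptors together with heparan sulphate, and the activated receptor drives the Ras-ERK cascade. ERK activity then induces Etv4 and Etv5, which carry the transcriptional response, and also Dusp6 and the Sprouty genes, whose products dampen the same cascade. These targets are therefore widely used as readouts of Fgf signalling, although other receptor tyrosine kinases induce them too. In the early mouse heart, Fgf8 and Fgf10 of the second heart field support outflow tract growth, and Fgf9 from the endocardium and epicardium acts on the myocardium through Fgfr1 and Fgfr2.

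Total counts ran from 20105913 to 51134291 per library. Xist, the RNA of the inactive X chromosome, stood at 0.340 to 0.611 CPM (counts scaled to library size with TMM factors) in male libraries and 225 to 277 CPM in female libraries. The Y-linked helicase Ddx3y stood at 32.9 to 76.5 CPM in males and 0.0548 to 0.187 CPM in females, so all libraries carried their labelled sex. All 10 cardiomyocyte markers examined were at 1 CPM or more in every library, and they summed to 40529.1 to 63508.5 CPM in males, highest in Male replicate 2, and 37352.5 to 47285.4 CPM in females, lowest in Female replicate 4. Of these, Ttn, Myh7 and Myh6 had higher values in males at unadjusted p of 0.0019, 0.019 and 0.043 (adjusted p = 0.9995 each in edgeR). Endothelial markers (654 CPM) and the mitochondrial share of counts (0.707%) were lowest in Male replicate 2. The part of these differences in the values below was not tested. Male replicate 2 stood apart on the first principal component of log2 CPM (62.0% of the variance), at 59.5, while the other 7 libraries lay between -35.0 (Female replicate 4) and 15.02 (Female replicate 1). The 12 markers of foregut and pharyngeal epithelium, tissue next to the heart, summed to 6.71 to 51.1 CPM in males and 10.3 to 76.1 CPM in females, with the highest sums in Female replicate 1 and Male replicate 2. Only 2 of these 12 markers were at 1 CPM or more in every library, and none was at 0 in all of them. The summed second heart field markers, 8 genes, ranged from 134 to 152 CPM in males and 145 to 163 CPM in females. In bulk tissue, fewer cells of a type and less RNA per cell cannot be told apart.

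The receptors formed a steep order, with Fgfr1 highest and Fgfr4 close to the limit of detection. Levels of different genes were compared per kilobase of exon (RPKM, from TMM-scaled CPM and the deposited exon lengths). Fgfr1 (chromosome 8, 25513654 to 25575718, GRCm38), the main receptor of heart mesoderm, averaged 5.80 ± 0.72 RPKM in male and 6.13 ± 0.42 RPKM in female hearts (SD, n = 4 each). Fgfr2 (chromosome 7, 130162451 to 133123350 in the deposited annotation) averaged 2.68 ± 0.22 RPKM in males and 2.85 ± 0.27 RPKM in females. Its splice forms serve epithelium and mesenchyme and are not separated by counts per gene. The deposited span holds 314 exon bases shared with Ctbp2, while the RefSeq promoter window of Fgfr2 lies at 130266759 to 130267058. Fgfr3 (chromosome 5, 33721674 to 33737068), best known for restraining growth of cartilage, averaged 1.10 ± 0.11 RPKM in males and 1.08 ± 0.06 RPKM in females. Fgfr4 (chromosome 13, 55152640 to 55168759), the receptor of liver and embryonic skeletal muscle, averaged 0.0619 ± 0.0289 RPKM in males and 0.0933 ± 0.0552 RPKM in females. Of the summed RPKM of the receptors, Fgfr1 made up 54.0% to 63.6% across the libraries, Fgfr2 25.1% to 32.1%, Fgfr3 9.59% to 13.3% and Fgfr4 0.403% to 1.62%.

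Each step of that order held in all 8 libraries. Within a library, Fgfr1 was on average 2.15-fold above Fgfr2 (log2 ratio 1.11 ± 0.20, SD, n = 8). Fgfr2 was 2.54-fold above Fgfr3 (1.34 ± 0.17), and Fgfr3 15.7-fold above Fgfr4 (3.97 ± 0.76). An exact 2-sided sign-flip permutation test gave p = 0.00781 for each of the 3 steps, the smallest that 8 libraries allow. The adjusted p over the 3 was 0.00781 (same test). The order was taken from the same libraries that were tested. A change of gene length shifts a ratio equally in every library, which the test does not cover. The deposited exon length joins all exons of a gene, and for the receptors it exceeds the length of the longest transcript, most of all in Fgfr1 (9875 against 5041 bases) and Fgfr2 (10328 against 4429 bases). With the longest transcript of GENCODE M21 as length, the log2 ratios were 0.85, 1.81 and 4.63, and the order was unchanged.

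Between libraries, Fgfr1, Fgfr2 and Fgfr3 moved by 1.37-fold or less from lowest to highest, while Fgfr4, on few counts, ranged more widely. Fgfr1 stood at 64.1, 47.2, 57.9 and 59.7 CPM in Male replicates 1 to 4, against 61.8, 60.7, 54.8 and 64.7 CPM in Female replicates 1 to 4. Male replicate 2 was the lowest of the 8 libraries, and the sexes overlapped. Fgfr2 stood at 28.1, 29.3, 24.4 and 29.0 CPM in the male libraries and at 33.3, 28.6, 29.1 and 26.7 CPM in the female ones. Its highest value lay in Female replicate 1, the library with the highest sum of foregut markers; the part of that tissue in the Fgfr2 value was not tested. Fgfr3 stood at 8.63, 8.44, 7.29 and 7.20 CPM in males and at 7.34, 8.23, 7.29 and 7.95 CPM in females, an almost even level. Its SD of log2 CPM over the libraries, 0.11, was above that of only 6.36% of the 1743 tested genes with a mean CPM within 1.5-fold of its own. Fgfr4 had 6, 6, 3 and 11 counts in Male replicates 1 to 4 and 23, 11, 6 and 10 counts in Female replicates 1 to 4. The 23 counts of Female replicate 1, or 0.614 CPM, have an exact Poisson interval (95%) of 0.389 to 0.921 CPM, and the 3 counts of Male replicate 3, or 0.132 CPM, one of 0.0273 to 0.387 CPM. These intervals cover counting error only. Female replicate 1 and Male replicate 4 had the highest Fgfr4 levels, and Female replicate 1 also had the most hepatic marker RNA (a sum of 81.7 CPM over 8 genes). Male replicate 2 (37.6 CPM) and then Male replicate 4 followed, and the other libraries held 2.47 to 6.73 CPM. In Male replicate 2, however, Fgfr4 stood at 0.175 CPM, higher than in Male replicate 3 alone. The part of the tissue behind the hepatic marker RNA in the Fgfr4 counts was not tested.

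**Figure D1:**
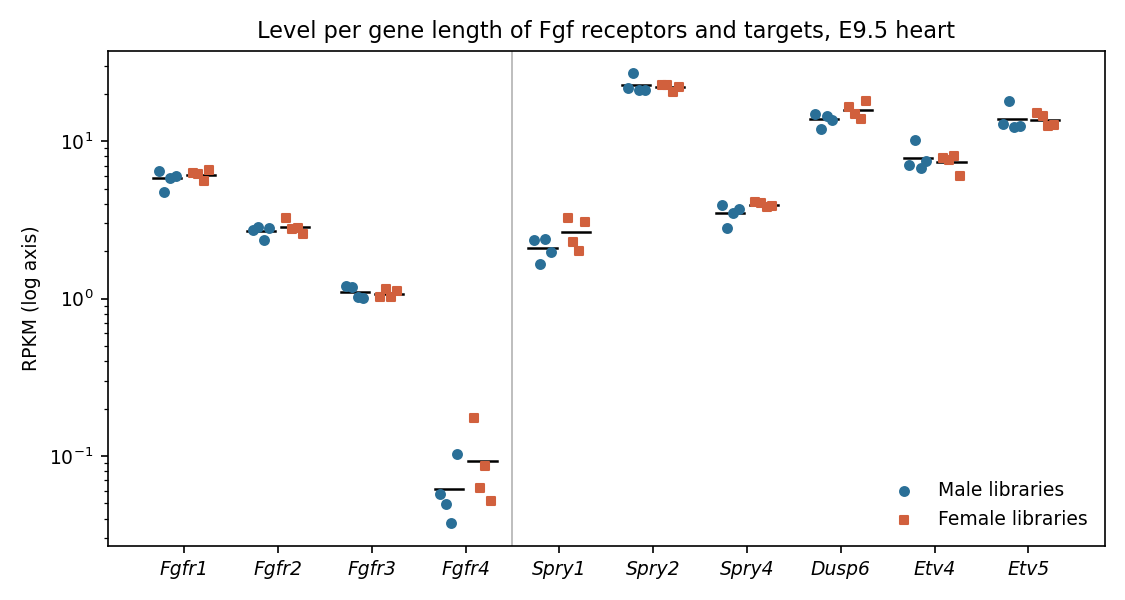
RPKM (log axis) of the 4 receptors, left of the grey line, and the 6 targets, right of it, in 4 male libraries (circles) and 4 female libraries (squares); black bars are group means. Fgfr4 lies between 0.0374 and 0.173 RPKM in every library, Fgfr1 between 4.78 and 6.55 RPKM, and Spry2 between 20.6 and 27.0 RPKM.

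The targets spanned a wide range of levels, and Spry2, Dusp6 and Etv5 were each higher per length than any receptor. The margin depended on the length used. With the longest transcript as length, Fgfr1 averaged 11.7 RPKM, against 22.4 for Spry2, 14.8 for Dusp6 and 14.3 for Etv5. It then lay above Etv4 (9.88 RPKM), while with the deposited lengths it lay below it (5.96 against 7.62 RPKM). Over the 8 libraries, Spry2 averaged 22.4 ± 2.02 RPKM (SD, n = 8), Dusp6 14.8 ± 1.81, Etv5 13.8 ± 1.98, Etv4 7.62 ± 1.22, Spry4 3.73 ± 0.41 and Spry1 2.38 ± 0.54 RPKM. Neighbours in this order differed in the same direction in 8 of 8 libraries (exact sign-flip permutation p = 0.00781, adjusted p = 0.00977 over 5 steps), with 1 exception. Over all 8 libraries, Dusp6 and Etv5 did not differ beyond their spread, with a mean log2 ratio of 0.10 ± 0.31 (exact permutation p = 0.398). Dusp6 was higher in 7 of 8 libraries, and Etv5 only in Male replicate 2, with a log2 ratio of -0.586. The mixed direction thus rests on that library, and this step was not tested without it. The order of the targets, like that of the receptors, was taken from the libraries tested. Spry2 thus lay 85.1% of the way up the ranking of tested genes by RPKM, Spry1 42.5%.

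The Sprouty proteins block receptor signalling upstream of ERK, and the departures of their genes from an even level lay in few libraries. Spry1 (chromosome 3, 37639947 to 37644598) stood at 6.86, 4.80, 6.98 and 5.77 CPM in Male replicates 1 to 4, against 9.39, 6.68, 5.82 and 8.92 CPM in Female replicates 1 to 4. Female replicates 1 and 4 were high and Male replicate 2 low, with the sexes overlapping. Its exons overlap the antisense gene Gm42922 over 24.4% of their length, and without a stated strand setting the reads of the overlap cannot be told apart (113 counts in Gm42922 and 1985 in Spry1). Of the 9 tested genes Spry1 varied most, with an SD of log2 CPM of 0.32, above that of 75.2% of the 1641 tested genes of like mean CPM. Spry2 (chromosome 14, 105891949 to 105896819) stood at 45.4, 56.3, 43.9 and 43.9 CPM in the male libraries and at 47.1, 47.3, 43.0 and 46.2 CPM in the female libraries. With TMM scaling, only Male replicate 2 departed from an even level, upwards. With library size alone as scaling, Spry2 stood at 48.7 CPM in that library, below Female replicate 4 at 49.5 CPM. Spry4 (chromosome 18, 38586268 to 38601268) stood at 18.1, 13.0, 16.1 and 17.0 CPM in males and at 18.9, 18.5, 17.5 and 17.7 CPM in females, and here Male replicate 2 was the lowest. Without that library the r of log2 CPM was 0.70 for Spry1 with Spry2 and 0.43 for Spry1 with Spry4, against -0.33 and 0.70 with it, given as a description.

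Dusp6 (chromosome 10, 99263231 to 99267488), which removes phosphate from ERK, stood at 41.6, 33.4, 40.4 and 38.3 CPM in Male replicates 1 to 4 and at 46.2, 41.3, 38.7 and 50.1 CPM in Female replicates 1 to 4. As for Spry1, Female replicates 1 and 4 were highest and Male replicate 2 lowest. Etv4 (chromosome 11, 101769742 to 101785371) stood at 21.8, 31.6, 20.9 and 23.3 CPM in the male libraries, against 24.3, 23.7, 24.9 and 18.8 CPM in the female ones. Etv5 (chromosome 16, 22381309 to 22439719), its close relative, stood at 52.7, 73.7, 50.6 and 51.4 CPM in males and at 62.4, 59.4, 51.0 and 52.1 CPM in females. Both ETS genes were highest in Male replicate 2, and the sexes overlapped in each.

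**Figure D2:**
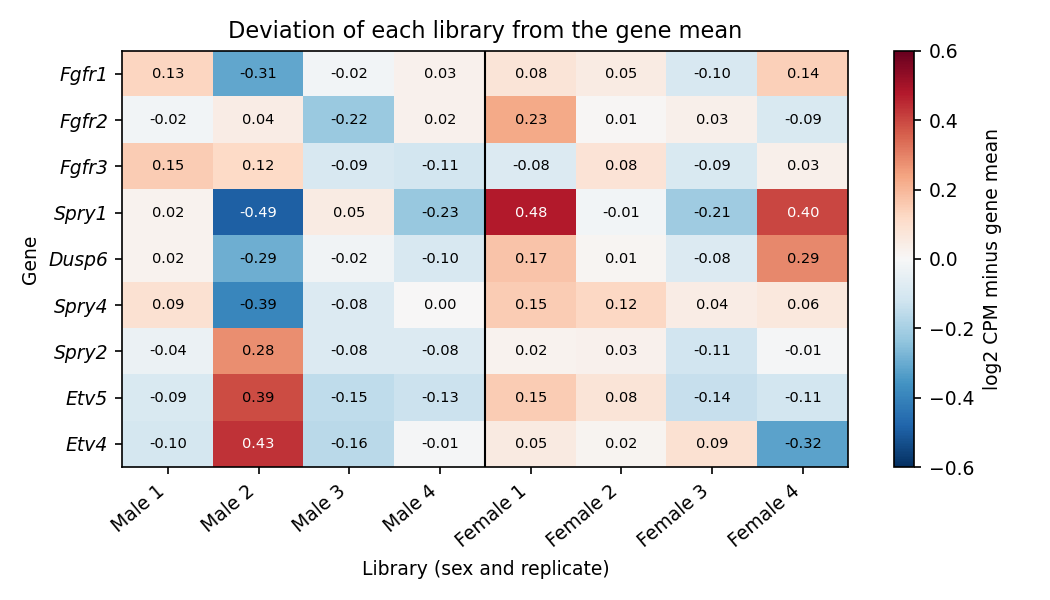
Log2 CPM of each gene in each library minus the mean of that gene over the 8 libraries, for the 3 tested receptors and the 6 targets; columns are male libraries, then female libraries. Male replicate 2 is low for Fgfr1 (-0.31), Spry1 (-0.49), Dusp6 (-0.29) and Spry4 (-0.39) and high for Spry2 (0.28), Etv5 (0.39) and Etv4 (0.43).

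Across the 8 libraries taken as one set, 2 of the 15 pairs of targets covaried, Spry1 with Dusp6 and Spry2 with Etv5. With values centred within each sex, neither pair passed (r of 0.943 and 0.951, adjusted p = 0.0521 each by exact permutation). For Spry1 and Dusp6, Pearson's r of log2 CPM was 0.959 (exact permutation p = 0.000521, adjusted p = 0.00428 over 15 pairs) and Spearman's rho 0.905 (exact permutation p = 0.00456, adjusted p = 0.0342). Spry2 and Etv5 had an r of 0.942 (exact permutation p = 0.00057, adjusted p = 0.00428) and a rho of 0.929 (exact permutation p = 0.00223, adjusted p = 0.0335). Without Female replicate 1 and Male replicate 2, the libraries farthest from the median of Spry1, the r of Spry1 and Dusp6 was 0.964, and without Female replicate 3 and Male replicate 2, farthest for Spry2, that of Spry2 and Etv5 was 0.847. The values of the libraries share their depth scaling, and with library size alone as scaling the r of Spry2 and Etv5 was 0.734 (exact permutation test, adjusted p = 0.0953), no longer called, while Spry1 and Spry4 (r = 0.824, adjusted p = 0.0290) and Spry4 and Dusp6 (0.882, adjusted p = 0.0260) passed beside Spry1 and Dusp6. Without both Female replicate 1 and Male replicate 2, the 2 libraries with the most foregut marker RNA, the r values were 0.964 and 0.816, each with an adjusted p of 0.0625 by exact permutation over the 6 libraries left. The part of that tissue in the covariation was not tested. Over all libraries, r was negative in 9 of the 15 pairs, and without Male replicate 2 in 3, all of them pairs with Etv4. Without that library, r was 0.76 in place of -0.70 for Spry2 with Spry4, 0.68 in place of -0.41 for Spry2 with Dusp6 and 0.81 in place of -0.55 for Spry4 with Etv5, so the negative signs of these 3 pairs rest on it. They also depended on the scaling. With library size alone and all 8 libraries, the 3 r values were -0.133, 0.218 and -0.373 in that order.

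Few genes were closer to a gene of the called pairs than its partner was, while many were closer to Etv4 than Etv5 was. By r to Spry1, Dusp6 ranked 16 among the other 16376 tested genes, and by r to Dusp6, Spry1 ranked 10. By r to Spry2, Etv5 ranked 18, and by r to Etv5, Spry2 ranked 56. Etv4 and Etv5, the most related by family, had an r of 0.794 (exact permutation p = 0.0252, adjusted p = 0.0967), and Etv5 ranked only 3344 by r to Etv4. Their r was 0.41 without Male replicate 2 (adjusted p = 0.469, exact permutation) and 0.892 without Female replicate 3 (adjusted p = 0.0357, same test). The r of Etv4 with Dusp6 was -0.796 (exact permutation p = 0.0258, adjusted p = 0.0967) and with Spry1 -0.694 (p = 0.0541, adjusted p = 0.116, same test), the second of which was -0.939 without Female replicate 1 (adjusted p = 0.0208, exact permutation). None of the 18 pairs of a tested receptor and a target passed. By Spearman's rho the closest were Fgfr1 with Dusp6 (rho = 0.905) and Fgfr2 with Etv4 (rho = 0.881), each with an adjusted p of 0.0652 by exact permutation. By Pearson's r the lowest adjusted p, 0.0894 by exact permutation, was shared by Fgfr1 with Spry1 (r = 0.788), Spry4 (0.876), Dusp6 (0.850) and Etv4 (-0.860), and without Male replicate 2 these r values were 0.64, 0.457, 0.714 and -0.569. The 3 pairs of receptors had r values between -0.0754 and -0.0367, none of which passed (lowest exact permutation p = 0.833). Without Male replicate 2 the r of Fgfr1 and Fgfr3 was 0.658, a description with no test.

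**Figure D3:**
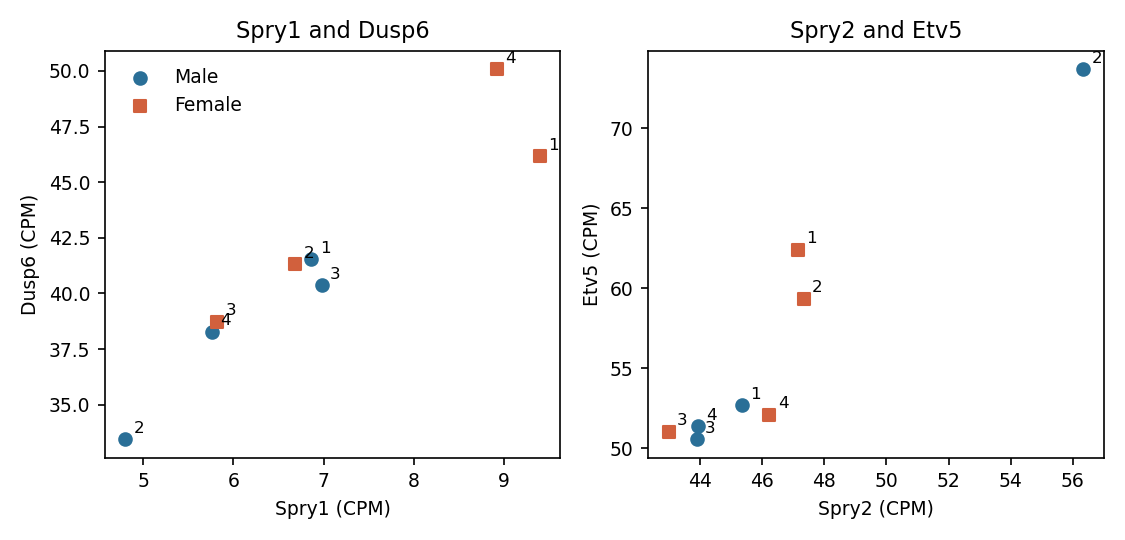
CPM of Dusp6 against Spry1 (left) and of Etv5 against Spry2 (right) in each library; circles are male and squares female libraries, and the numbers are replicates. Both plots rise, with Male replicate 2 at the low end on the left (4.80 and 33.4 CPM) and at the high end on the right (56.3 and 73.7 CPM).

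The promoter windows of these 2 pairs are printed because their genes covaried. Each is the window across the start of the gene in RefSeq (build GRCm38.p6), 5′ to 3′ on the strand of the gene, in lower case with capitals at matches, on either strand, to the ETS core sites CCGGAA and CAGGAA, the CRE TGACGTCA, the GC box GGGCGG and the TATA box TATAAA. The windows are chr3:37639697-37639996 (plus strand) for Spry1, chr10:99262981-99263280 (plus strand) for Dusp6, chr14:105896770-105897069 (minus strand) for Spry2 and, of 2 windows listed for Etv5, chr16:22439521-22439820 (minus strand).
Spry1: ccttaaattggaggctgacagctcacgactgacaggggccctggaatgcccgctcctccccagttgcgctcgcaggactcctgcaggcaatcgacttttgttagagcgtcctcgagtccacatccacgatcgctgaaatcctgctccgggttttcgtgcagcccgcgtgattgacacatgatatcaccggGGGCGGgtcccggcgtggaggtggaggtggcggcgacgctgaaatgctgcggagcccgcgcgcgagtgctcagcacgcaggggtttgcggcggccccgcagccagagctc
Dusp6: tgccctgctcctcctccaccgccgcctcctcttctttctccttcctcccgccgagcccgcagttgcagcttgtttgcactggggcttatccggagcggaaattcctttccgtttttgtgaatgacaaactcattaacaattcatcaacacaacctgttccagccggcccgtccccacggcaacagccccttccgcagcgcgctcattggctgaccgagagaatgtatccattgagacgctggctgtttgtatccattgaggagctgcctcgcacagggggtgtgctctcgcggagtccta
Spry2: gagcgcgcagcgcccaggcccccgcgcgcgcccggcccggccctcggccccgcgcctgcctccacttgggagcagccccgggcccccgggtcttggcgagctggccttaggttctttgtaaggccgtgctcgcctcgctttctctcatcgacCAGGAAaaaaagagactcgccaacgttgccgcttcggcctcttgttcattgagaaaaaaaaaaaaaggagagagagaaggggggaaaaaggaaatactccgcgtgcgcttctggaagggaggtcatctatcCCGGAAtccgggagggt
Etv5: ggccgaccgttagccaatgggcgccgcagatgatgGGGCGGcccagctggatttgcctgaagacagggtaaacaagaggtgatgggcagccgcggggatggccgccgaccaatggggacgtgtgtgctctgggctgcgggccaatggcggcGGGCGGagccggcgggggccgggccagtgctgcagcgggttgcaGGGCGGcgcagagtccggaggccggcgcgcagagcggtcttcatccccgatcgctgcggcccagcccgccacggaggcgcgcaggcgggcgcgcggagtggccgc
Spry2 held both ETS core sites, CAGGAA from base 153 and CCGGAA from base 284 of the window. Of all 32851 promoter windows in the table, 14.9% held CCGGAA and 30.6% held CAGGAA. Spry1 held 1 GC box and Etv5 held 3, while 35.7% of all windows held that motif. None of the 5 motifs was found in the Dusp6 window. The Etv5 window printed is the one that holds the start of the gene in the deposited table. The other one, chr16:22438319-22438618, held CAGGAA on the reverse strand from base 194, a motif the Spry2 window also held. Windows were also listed for Fgfr2, Fgfr3 and Fgfr4. The Fgfr4 window also held both ETS core sites, CCGGAA from base 73 and CAGGAA on the reverse strand from base 255. The Fgfr2 window held CAGGAA from base 42, and the Fgfr3 windows held neither site.

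Male and female hearts did not differ detectably in any of the 9 tested genes. In edgeR's quasi-likelihood test over all 16377 genes, 0 of the 9 passed an adjusted p of 0.05, where 0.0366% of all genes tested did (0.0305% higher and 0.00611% lower in males), and 0 of the 9 had an unadjusted p below 0.05, against 2.24% of all genes. DESeq2, which also tested Fgfr4, and limma-voom called 0 as well. The male and female libraries overlapped in every one of the 9, whereas 2.23% of all tested genes showed no overlap. In males 5 of the 9 had a lower value, against 47.1% of all genes, and the median log2 fold change was -0.08, against 0.01 over all genes.

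Spry1 had the largest difference, 6.10 ± 1.02 CPM in males and 7.70 ± 1.72 CPM in females (SD, n = 4 each). The log2 difference was -0.34 with a standard error of 0.19 (edgeR adjusted p = 0.9995) and a 95% interval of -0.77 to 0.08, which includes both 0 and a sizeable reduction in males. Dusp6 averaged 38.4 ± 3.57 CPM in males and 44.1 ± 5.05 CPM in females, a log2 fold change of -0.20 ± 0.11 with an interval of -0.44 to 0.04. For Spry4 the means were 16.0 ± 2.21 CPM in males and 18.2 ± 0.64 CPM in females, a log2 fold change of -0.18 ± 0.11 with an interval of -0.43 to 0.07. Fgfr1 (57.2 ± 7.16 CPM in males and 60.5 ± 4.13 CPM in females) had an interval of -0.32 to 0.16, and Fgfr2 (27.7 ± 2.28 and 29.4 ± 2.80 CPM) one of -0.31 to 0.14. Spry2, Etv4 and Etv5 had log2 fold changes of 0.04, 0.10 and 0.02, which were -0.0508, -0.0535 and -0.127 without Male replicate 2. Without that library Spry4 was at -0.0901 and Fgfr1 at -0.00018, and Fgfr2 was at -0.0158 without Female replicate 1. Dusp6 was at -0.132 without Female replicate 4, and Spry1 at -0.150 without Male replicate 2 and Female replicate 1 together. Without Female replicate 3 both were larger in size, Spry1 at -0.451 and Dusp6 at -0.255. Their unadjusted p in edgeR was then 0.039 and 0.047 (adjusted p = 0.985 each). Fgfr3 was at 0.03 and at -0.0024 without Male replicate 2. With library size alone as scaling, Fgfr3 and Etv5 were at -0.0035 and -0.0263. On simulated counts of the same depth and spread, with each gene drawn independently, edgeR called 20.9% of the genes given a 1.5-fold difference and 60.6% of those given a 2-fold one, so differences of the size seen here were mostly not detectable.

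**Figure D4:**
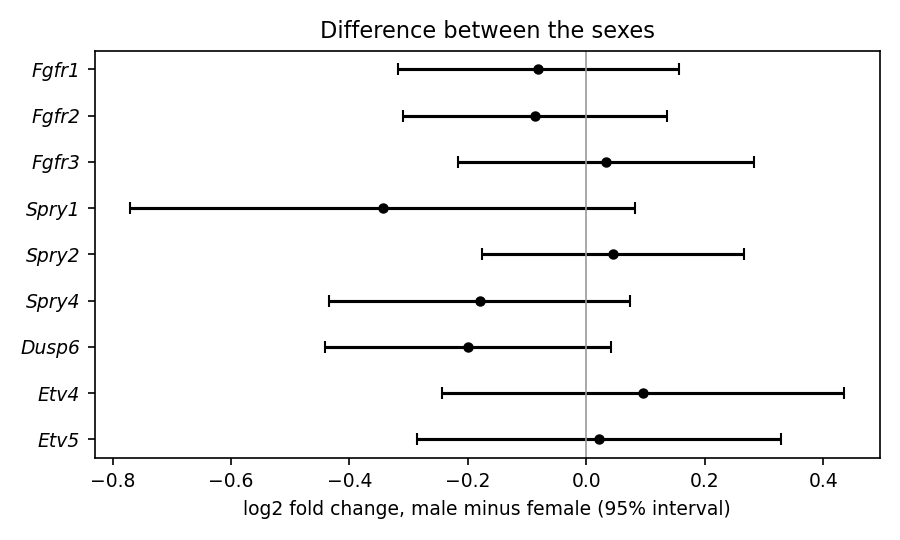
Log2 fold change, male minus female, of the 9 tested genes with its 95% interval from edgeR. Every interval includes 0, and the interval of Spry1 is the widest, from -0.77 to 0.08.

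Of the ligands, Fgf8 had the highest mean level per length. Fgf13 was above it per length in Male replicate 3 (6.20 against 6.18 RPKM) and Female replicate 4 (6.21 against 6.04 RPKM). In mean CPM Fgf13 was higher, at 20.2 in males and 21.1 in females, against 14.9 and 14.0. Of 22 ligand genes, 14 had enough counts to be tested, 9 with a higher and 5 with a lower value in males, and 0 passed (edgeR; 1 with an unadjusted p below 0.05, Fgf9). Their median log2 fold change was 0.01, against 0.01 over all tested genes, and with library size alone as scaling it was -0.0304, with 6 higher and 8 lower in males, a split that leaving out Male replicate 2 also gave. Fgf8 averaged 10.7 ± 4.28 RPKM over the 8 libraries (SD, n = 8) and ranged widely, at 12.6, 26.2, 8.35 and 12.3 CPM in Male replicates 1 to 4 and 17.2, 14.98, 15.7 and 8.15 CPM in Female replicates 1 to 4. Fgf13 and Fgf11, of the intracellular group that does not signal through the receptors, averaged 5.14 ± 0.97 and 0.823 ± 0.108 RPKM. Fgf10, the second heart field ligand that favours a splice form of Fgfr2, averaged 1.55 ± 0.29 RPKM, with 6.30 ± 0.85 CPM in males and 7.98 ± 1.26 CPM in females (log2 fold change -0.34 ± 0.15). Fgf9 averaged 1.40 ± 0.32 RPKM, with 6.81 ± 1.47 CPM in males and 5.15 ± 0.51 CPM in females (log2 fold change 0.40 ± 0.17, unadjusted p = 0.0418, adjusted p = 0.9995 in edgeR). Fgf20, named after its values were seen, had 1 count in all libraries together.

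Several abundant genes of the rest of the pathway are named with their levels. Of 22 co-receptors and binding partners, 19 were tested, 7 higher and 12 lower in males, and 0 passed. That split was 12 higher and 8 lower without Female replicate 4, and 10 each without Male replicate 2, where 20 were tested. Gpc3, a heparan sulphate proteoglycan of the cell surface, averaged 221 ± 21.2 RPKM, Ugdh, which makes the sugar precursor of heparan sulphate, 14.3 ± 1.46, and Ext1, which builds its chain, 13.1 ± 2.75 RPKM. All 24 adaptors and members of the Ras-ERK cascade were tested, 6 higher and 18 lower in males, and 0 passed. Their median log2 fold change was -0.07, against 0.01 over all genes, and it was -0.012, against -0.0078, without Male replicate 2 and Female replicate 1. The ERK kinase Map2k2 averaged 76.8 ± 20.2 RPKM, the adaptor Grb2 44.5 ± 1.57 and Hras 39.9 ± 10.5 RPKM. Of 22 other ERK feedback and target genes, 21 were found and tested, 8 higher and 13 lower in males, and 0 passed. Phlda1, an inducible gene of the ERK response, averaged 41.1 ± 14.0 RPKM, and the phosphatases Dusp9 and Dusp7 averaged 25.4 ± 5.28 and 13.8 ± 1.39 RPKM. Il17rd, an inhibitor of Fgf signalling named after its values were seen, was the 1 gene of that list with an unadjusted p below 0.05. It stood at 6.59 ± 1.28 CPM in males and 8.47 ± 1.01 CPM in females (unadjusted p = 0.0447, adjusted p = 0.9995 in edgeR). With library size alone as scaling, more genes of each of these 3 lists were lower than higher in males, as above. All 4 pathway lists had 0 calls by edgeR, DESeq2 and limma-voom, and by edgeR 0.0366% of all genes tested were called.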

How the data were processed

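Heart RNA went through Trizol and an Illumina TruSeq RNA kit, per the labels' protocols. The submitters' processing notes name GRCm38 (mm10), the trimmer Trimmomatic 0.36, the aligner STAR 2.5.2b and, for counting, Subread 1.5.2 with its featureCounts. Strand setting, treatment of multi-mapped reads and annotation release were each not given in the sources used here. Deposited values are raw counts per gene with exon lengths, the same in the tables per library and in the table of the series for all 49315 genes. The authors also deposited a normalized signal for 16460 genes, the counts times 1 factor per library (relative tolerance 1e-06), used only as an alternative.

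Genes were tested for male minus female by the robust quasi-likelihood test of edgeR 4.0.16 (R 4.3.3) after TMM scaling, keeping genes that passed filterByExpr at minimum count 10, with Benjamini-Hochberg adjustment over 16377 genes, tested on simulated data with known changes. CPM and RPKM use the TMM factors. Receptor steps and correlations were tested by exact permutation in Python 3.11.15. Replicate pairs differed by a chi-square per gene of 7.96 to 198, above sampling noise, so all were counted separately. Alternatives were DESeq2 1.42.0, limma-voom (limma 3.58.1), other scalings, filters, lengths and libraries left out. Exons of Fgfr1, Fgfr3 and Spry1 overlap antisense genes over 1.66%, 13.9% and 24.4% of their length, with 13, 20 and 113 counts in those genes. Exons of Fgfr2 (7962 counts) share 314 bases, 3.04% of its length, with Ctbp2 on the same strand (25250 counts). The genes and lists were chosen with earlier results of these data known. Genes named were all 10 members, the 5 ligands and the 3 genes of each other pathway list with the highest mean RPKM, called pathway genes, the 5 genes most like the mean of the 6 targets, and Xist and Ddx3y. Others are marked as named after their values were seen.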

Additional observations from a re-analysis of the deposited data

Results flagged for a closer look

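The values of 24 genes were examined within each sex, 48 groups of 4 libraries, for a library whose distance to its nearest neighbour took up more than 0.829 of the range of the group, which chance gives in about 1 in 20 groups. It was met 4 times, each time by Male replicate 2. Spry2 stood at 56.3 CPM there, against 43.9 to 45.4 CPM in the other male libraries. With library size alone as scaling, Spry2 was at 48.7 CPM there, and at 47.5, 45.6 and 44.6 CPM in Male replicates 1, 3 and 4. Etv5 stood at 73.7 CPM, against 50.6 to 52.7 CPM. Hras stood at 237 CPM, against 127 to 138 CPM, and Dusp9 at 92.1 CPM, against 57.2 to 60.0 CPM. Male replicate 2 also lay farthest out on the first principal component of all tested genes, at 59.5, and had the lowest TMM factor, 0.864, against 0.982 to 1.07 in the other 7 libraries. The part of these library-wide differences in the 4 values was not tested.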

How the results depend on the processing

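The count of genes called between the sexes was 6 and ran from 5 to 9 over 17 alternatives, and 0 of the 9 tested genes was called in any of them, nor Fgfr4 in the 4 that tested it. Of 153 fold changes of the 9 genes under the alternatives, 15 turned their sign. They belonged to Fgfr1, Fgfr3, Spry2, Etv4 and Etv5. The main log2 fold changes of these genes lay between -0.081 (Fgfr1) and 0.096 (Etv4). Leaving out 1 library at a time, log2 fold changes ran from -0.0117 to 0.0736 for Fgfr3, from -0.0508 to 0.0791 for Spry2, from -0.0535 to 0.162 for Etv4 and from -0.127 to 0.0817 for Etv5. They ran from -0.451 to -0.233 for Spry1, from -0.255 to -0.132 for Dusp6 and from -0.242 to -0.0901 for Spry4. For Fgfr1 and Fgfr2 they ran from -0.139 to -0.00018 and from -0.130 to -0.0158. Without Male replicate 2 and Female replicate 1 together, they were 0.0072 for Fgfr1, -0.0295 for Fgfr3, -0.0410 for Spry2, -0.0243 for Etv4 and -0.0758 for Etv5. With library size alone they were -0.0035 for Fgfr3 and -0.0263 for Etv5, and with no filter -0.0022 for Etv5. The cause of these changes was not tested. The 3 receptor steps kept their direction in every alternative, with a log2 ratio of 0.85 to 1.19 for Fgfr1 over Fgfr2. They also passed in each, which adds no support. With every library in the same direction, leaving libraries out must give the smallest p that those left allow. A change of length shifts every library alike. The count of covarying target pairs was 2 to 3 with 1 library left out. It was 0 with values centred within each sex (r of 0.943 and 0.951, adjusted p = 0.0521 each, exact permutation), 0 without Male replicate 2 and Female replicate 1 together, where fewer libraries were left, and 0 with the replicate number as a block (r of 0.963 and 0.870), where no p under 0.125 is possible. Between libraries of the same number, deviations from the mean of their sex had r of -0.47, -0.02, -0.38 and 0.09 across genes. These values cannot tell whether such libraries shared a litter or a batch, which the labels do not give. The replicate block called 5 genes between the sexes. Counts of 3 to 23 limit what can be said of Fgfr4.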

Other observations

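The profile of Etv4 across the libraries was shared by many abundant genes, which were named after their values were seen. The 3 genes with the highest r to Etv4 were the transcriptional coactivator Edf1 (r = 0.998), the proteasome subunit Psmd4 (0.997) and the small heat shock protein Hspb2 (0.996), and the cytochrome c oxidase subunit Cox4i1 followed (0.995). Fgf8 and Etv4 both had their highest value in Male replicate 2 (26.2 and 31.6 CPM) and their lowest in Female replicate 4 (8.15 and 18.8 CPM), the libraries at the ends of the first principal component (59.5 and -35.0). Etv1, a further ETS factor of the same family, also named after its values were seen, was also highest in Male replicate 2, at 19.9 CPM, against 9.27 to 10.7 CPM in the other males and 9.32 to 10.9 CPM in females. The part of the library-wide differences in these values was not tested.

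Klf3, a zinc finger repressor named after its values were seen, was among the 5 genes most like both Spry1 (r = 0.979) and Dusp6 (r = 0.980). The genes most like the mean of the 6 targets were Rnf219 (r = 0.974), Alpl, which encodes an alkaline phosphatase (0.968), Zfp748 (0.96), the Wnt receptor gene Fzd7 (0.949) and the receptor tyrosine kinase gene Kit (0.949), over 8 libraries and 16368 genes. Over all 8 libraries the mean of the 6 targets joins opposed profiles, since r was negative in 9 of the 15 target pairs. Likeness to that mean is therefore not likeness to each target. Without Male replicate 2, r was negative in 3 of the pairs, all of them with Etv4. All of these r values are descriptions, with no test.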
